A study of Arabidopsis thaliana with 32 samples.

Results

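The response of callus to an inducible LEAFY protein was measured 4 h after the start of treatment on 4 two-colour cDNA arrays, taken by their label from a time course of 32 arrays. The course held 4 arrays at each of 8 time points, and the other 7 times were used for comparison, with tests of the difference against 0, 2, 6 and 22 h. All RNA came from Arabidopsis thaliana tissue that carried 35S:LFY-GR, named as callus in one label and as root explants in another. Each array set tissue given dexamethasone for 4 h against tissue given a control solution for the same 4 h. The spotted cDNAs were chosen to favour transcripts found in flowers. In bulk RNA, fewer cells of a type and less RNA per cell cannot be told apart. No arrays of callus without the fusion were used here, so an effect of dexamethasone itself cannot be told apart from an effect of the fusion protein. The 35S promoter is active in most plant tissues, so the fusion was not restricted to the cells in which LEAFY is normally made.

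LEAFY is a plant transcription factor that gives new shoot meristems the identity of flowers, and it switches on floral homeotic genes and other regulators. Joined to the steroid-binding domain of a mammalian glucocorticoid receptor (GR), a protein is held in the cytoplasm until dexamethasone, a synthetic steroid, lets it enter the nucleus. Early time points after such a release are used to look for transcripts that respond soon after the factor reaches its targets.

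Values are log2 ratios of treated to control RNA within an array, so 1 on this scale is a 2-fold difference. The treated RNA was in channel 2 on replicates 1 and 3 and in channel 1 on replicates 2 and 4, and the signs of replicates 2 and 4 were turned. The numerator of the deposited ratio is not stated. With channel 2 as numerator, the likely convention, positive values mean more RNA after dexamethasone, and with channel 1 all signs exchange. After turning, all 6 pairs of 4 h arrays correlated positively over features, with r from 0.0472 between replicates 1 and 3 to 0.352 between replicates 1 and 2 with limit values left out. With limit values kept, r ran from 0.101 between replicates 2 and 4 to 0.325 between replicates 1 and 3. The lowest correlation of a 4 h array with an array of its own orientation at another time was -0.0609. Replicate 1 at 0 h and replicate 1 at 2 h, which enter the comparisons below, correlated at -0.311. Correlations between arrays stay the same if all signs exchange, so the direction is not settled. Whether the arrays came from separate cultures or were dye swaps of shared RNA is not stated in the labels. The p-values therefore cover array-to-array spread alone, and some or all of it may be technical.

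The deposited identifiers have the form of a plate number, a row and a column. 0 of the 10816 features matched the gene table of TAIR10.1, so no feature is given a gene name and 4 are named by identifier. The 4 h arrays held values for 10774 to 10805 features. Log10 ratios of exactly 2 or -2, a ratio of 100 either way, were set to missing. There were 126 such values on replicate 1, 23 on replicate 2, 324 on replicate 3 and 59 on replicate 4. The arrays with treated RNA in channel 2 thus carried most of them. As deposited, 122, 3, 321 and 23 of them stood at the upper limit on replicates 1 to 4. The lower limit held 4, 20, 3 and 36. After the signs of replicates 2 and 4 were turned, most of the values set to missing were thus positive. In all, 10736 features had at least 1 value in each orientation at 4 h and were tested, and 68 of the 80 that were not tested stood at a limit on both replicates 1 and 3.

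At 4 h 180 features (1.68% of those tested) had a ratio different from 0 by limma over all 32 arrays with a dye term, at a Benjamini-Hochberg adjusted p below 0.05. The positive side held 102 (0.95%) and the negative side 78 (0.727%). At an unadjusted p under 0.05 there were 1199 (11.2%). All 180 had a value on each of the 4 arrays, as did 10389 of the 10736 tested. The fitted log2 ratio ran from 0.36 to 2.38 on the positive side, with a median of 0.68, and from -1.36 to -0.34 on the negative side, with a median of -0.58. The median over all features tested was -0.01. A 2-fold difference was passed by 23 positive and 7 negative features. On the positive side 100 of the 102 features had the same sign on every array, and on the negative side all 78 did. The median ratio of the positive features was 0.78 on replicate 1, 0.82 on replicate 2, 0.57 on replicate 3 and 0.64 on replicate 4. For the negative features it was -0.63, -0.71, -0.56 and -0.49 on replicates 1 to 4. The sides were thus apart on every array, as the choice by ratio requires, and replicates 1 and 2 showed the larger sizes on both. The counts leaned on single arrays. Without replicate 1 they were 42 and 17, without replicate 2 they were 50 and 30, and without replicate 3 they were 74 and 41. After averaging replicate 1 with 2 and 3 with 4, as for dye swaps, they were 26 and 4. With the 4 h arrays fitted alone they were 5 and 0, with 1 of the 5 among the 102. Over the whole course 11 arrays held over 100 limit values, among them replicates 1 and 3 at 4 h. Without these 11, and with no filter on missing values, the counts were 18 and 4.

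**Figure D1:**
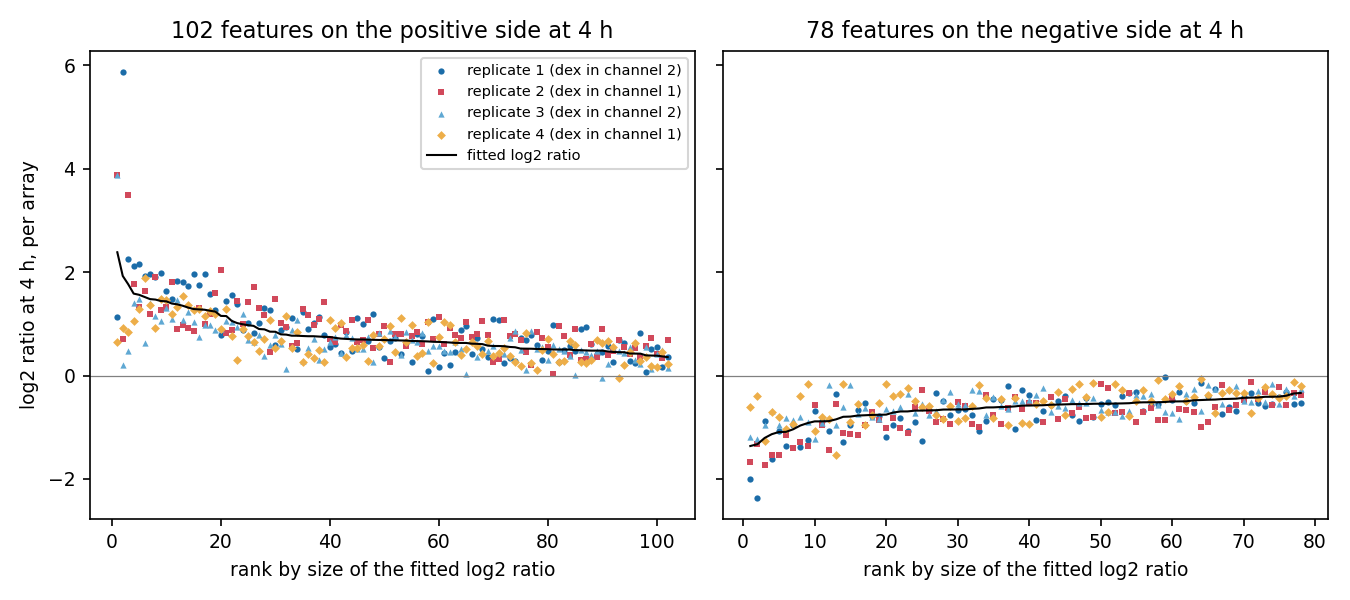
Log2 ratio at 4 h on each of the 4 arrays (points) for the 102 positive (left) and 78 negative (right) features, ordered by the fitted ratio (black line). Most features keep a narrow band over the arrays, while the points far above the line belong to the leading positive features, the highest at 5.87 on replicate 1.

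A reading on an array that took no part in the choice was had by calling features without that 4 h array. Of the 42 positive features called without replicate 1, 41 were positive on it, with a median there of 0.65. The 50 called without replicate 2 had a median of 0.80 on it, and 46 were positive. The medians were 0.53 for the 74 features read on replicate 3 and 0.53 for the 78 read on replicate 4. On the negative side the medians of the 17, 30, 41 and 60 features were -0.66, -0.52, -0.51 and -0.37 on replicates 1 to 4. The sign held for 90.0% to 100% of the features of a set on the array left out. The share of all features tested whose sign held in this way is not given here. If replicates 1 and 2, and 3 and 4, shared RNA, these readings are not independent of the choice.

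The leading positive features were the most uneven ones. Feature GP010A11 stood at 1.14, 3.87, 3.88 and 0.64 on replicates 1 to 4 at 4 h, with a fitted ratio of 2.38 (SE 0.49, adjusted p = 0.00797). Replicates 2 and 3 lay far above the other two, and 0 h values ran up to 1.795 on replicate 1, so the 0 h and 4 h arrays overlapped. Its difference between 4 h and 0 h did not pass the test (1.74, SE 0.69, adjusted p = 0.749). By limma the 4 h call was lost without replicate 2 (adjusted p = 0.123), without replicate 3 (0.111) and with limit values kept (0.238). It was also lost with 4 h alone (0.335) and without the arrays with many limit values (0.665).

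Feature GP009E11 stood at 5.87, 0.71, 0.21 and 0.92 at 4 h, with a fitted ratio of 1.92 (SE 0.49, adjusted p = 0.0340). The SD of these 4 values was 2.64. Replicate 1 alone was high, and without it the ratio was 0.56 (adjusted p = 0.398). By limma the 4 h call was also lost with 4 h alone (adjusted p = 0.653) and with the arrays averaged (0.111). The same held without the arrays with many limit values (0.497) and with a dye term for each time point (0.0604). The difference from 0 h did not pass the test (1.90, SE 0.69, adjusted p = 0.563). The feature then stood between 1.38 and 2.21 on the 4 arrays of 6 h. By 22 h its ratio was 3.76 ± 0.23 (SD, n = 4, adjusted p = 3.45e-06). Its 4 h array values other than replicate 1 were thus below every value at 6 h, a difference that was not tested without that array.

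On the negative side, feature GP001B2 stood at -1.997, -1.67, -1.18 and -0.61 on replicates 1 to 4, with a fitted ratio of -1.36 (SE 0.27, adjusted p = 0.00524). Feature GP010A10 stood at -2.36, -1.31, -1.24 and -0.40, with a fitted ratio of -1.33 (SE 0.25, adjusted p = 0.00374). Both were lowest on replicate 1 and nearest 0 on replicate 4, and GP001B2 lay below all its 0 h values on every 4 h array, while replicate 4 of GP010A10 overlapped with its own. The difference from 0 h did not pass the test for GP001B2 (-1.17, adjusted p = 0.398) or GP010A10 (-1.17, adjusted p = 0.325). The call of GP001B2 was lost without replicate 1 (adjusted p = 0.0798) or replicate 2 (0.0757), and that of GP010A10 without replicate 1 (0.0841). By limma both calls were also lost with 4 h alone (adjusted p = 0.155 for GP001B2 and 0.170 for GP010A10). The same held with the arrays averaged (0.184 and 0.167) and without the arrays with many limit values (0.309 and 0.399). Over all 32 arrays the 2 features correlated at 0.957, and at 0.937 once the time point means and the dye term were removed. Of the 9790 features with values on every array, none was more like GP001B2 than GP010A10 was. Correlated features share arrays and RNA, so this is a description of the profile and not of gene identity.

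**Figure D2:**
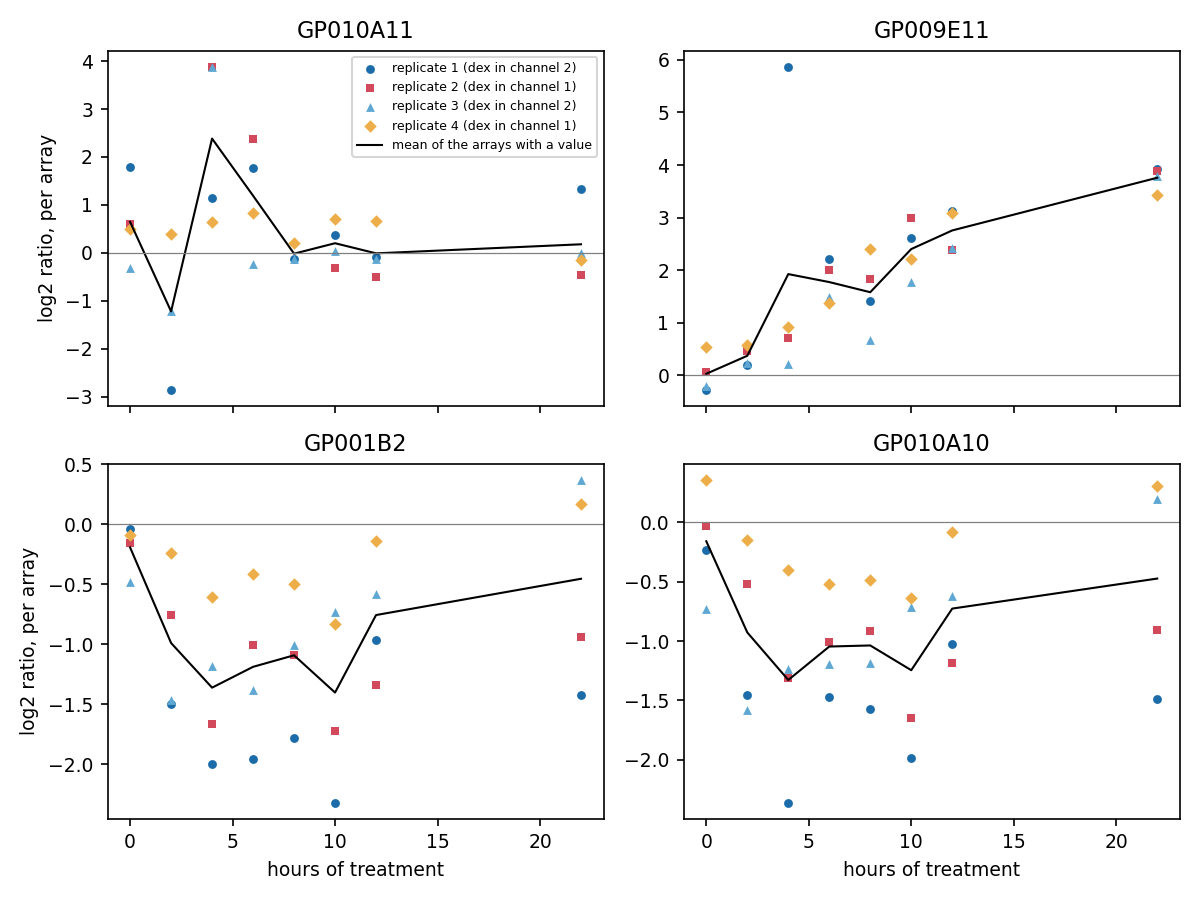
Log2 ratios of the 4 named features on each array over the time course, with the mean of the arrays that had a value (line). GP010A11 and GP009E11 scatter widely at 4 h, and GP001B2 and GP010A10 show like values array by array. GP010A11 also scatters at 2 h, with a mean of -1.22 (SD 1.62, n = 3), and at 6 h (SD 1.14, n = 4). Its means from 8 to 22 h lie between -0.02 and 0.20.

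Features with even values were also present. A difference beyond 2-fold on every one of the 4 arrays was shown by 6 features, all on the positive side, with fitted ratios from 1.39 to 1.58 and single values from 1.05 to 2.15. Their 0 h values ran from -0.48 to 0.56, so the groups did not overlap, which the choice by values beyond 2-fold at 4 h favours. How many of all features showed no overlap is not given here. The difference from 0 h passed the test for 1 of the 6 (adjusted p = 6.17e-05), and for the other 5 the adjusted p ran from 0.0703 to 0.398. The positive feature with the smallest p stood at 1.27, 1.60, 0.87 and 1.20, with a ratio of 1.24 (SE 0.11, adjusted p = 1.48e-07), against 0.01 to 0.08 at 0 h. The negative feature with the smallest p stood at -0.88, -1.74, -0.95 and -1.26, with a ratio of -1.21 (SE 0.15, adjusted p = 5.47e-05), against 0.02 to 0.57 at 0 h.

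Several of the positive features followed one another closely. A group of 9 features on 9 different plates correlated pairwise over the 32 arrays, with a lowest r of 0.930 and a median of 0.972. The group was found after the data were seen and holds 4 of the 6 features just described and 9 of the 23 beyond 2-fold. At 4 h its median was 1.83, 1.20, 1.23 and 1.36 on replicates 1 to 4, and its fitted ratios ran from 1.28 to 1.56 (SE 0.29 to 0.37, adjusted p from 0.0135 to 0.0423). At 0 h its fitted ratios lay between -0.24 and -0.07. At 2 h they were 1.15 to 1.38, with 0 of the 9 called there, and at 22 h they were 2.23 to 2.64, with all 9 called. None of the 9 passed the limma test of 4 h against 0 h (adjusted p from 0.221 to 0.403) or of 22 h against 4 h (0.173 to 0.634, 4 at an unadjusted p under 0.05). The calls of the group at 4 h were fragile, with 0, 1, 1 and 3 of the 9 left without replicates 1, 2, 3 and 4. The spread of its array medians was wide at other times, from 0.46 to 2.55 on the 6 h arrays and from 1.04 to 3.68 on the 12 h arrays. Over the whole positive side, 100 features had values on all 32 arrays, and 14 of them lay in 3 groups joined by correlations over 0.9. On the negative side 14 of 78 lay in 5 such groups. Whether such features are clones of the same transcript is not known here, as they have no gene names.

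**Figure D3:**
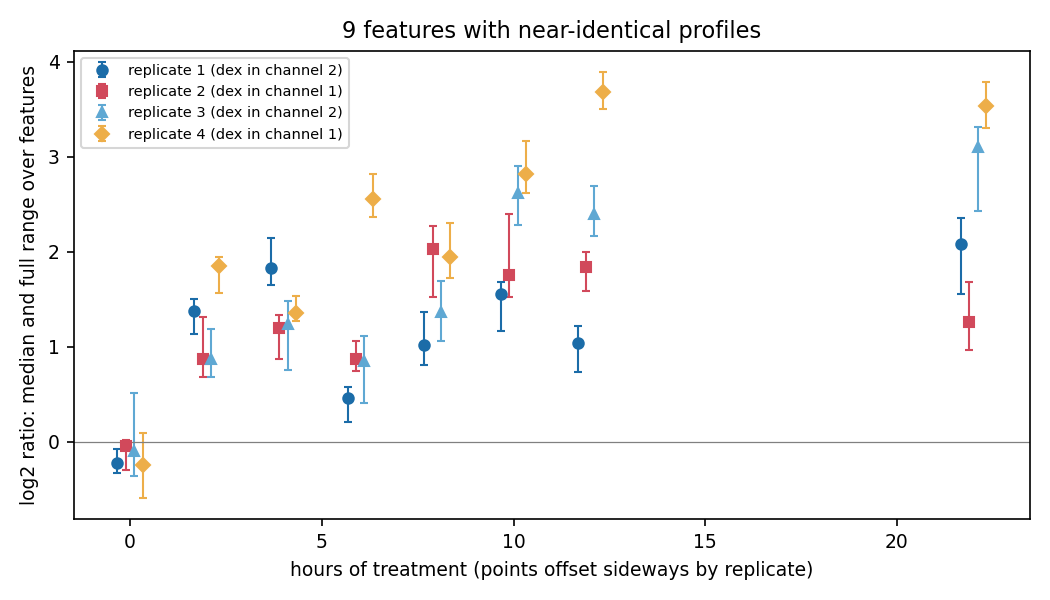
Log2 ratios of the 9 positive features with like profiles, as the median (point) and full range (bar) over the 9 features on each array at each time point. At 6 and 12 h the bars are short against the distance between the outermost arrays, and the medians of the 4 h arrays lie closer together than those of 6 or 12 h.

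The 0 h arrays, with both cultures treated for 0 h, give the background. At 0 h limma called 0 of 10762 features. The positive features of 4 h had a median per array of 0.01 ± 0.08 (SD, n = 4) at 0 h and the negative ones -0.03 ± 0.06. The difference between 4 h and 0 h passed the test for 18 of 10702 features (0.168%), 12 positive (0.112%) and 6 negative (0.0561%), and all 18 were among the 180 called at 4 h, on the same side. In all 18 the 4 h and 0 h arrays did not overlap, which the choice by that test favours. The share of all features without overlap is not given here. The differences of the 18 ran from 0.62 to 1.75 and from -1.52 to -0.74. The test is less precise than that against 0, with a median SE of 0.188 against 0.133, since it also carries the error of the 0 h arrays. The count was 10, 5, 14 and 11 without replicates 1, 2, 3 and 4 and 0 with the arrays averaged as dye swaps (495 at an unadjusted p under 0.05 by limma). It was 30 with arrays scaled to a common spread and 30 with no filter on missing values.

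The sets called at 4 h were followed through the other time points. At 2 h the positive set stood at 0.38 ± 0.06 and the negative set at -0.35 ± 0.14, against 0.70 ± 0.12 and -0.60 ± 0.10 at 4 h. From 6 to 22 h the positive set stayed between 0.67 ± 0.06 and 0.75 ± 0.05. The negative set stood at -0.48 ± 0.07 at 6 h, -0.37 ± 0.09 at 10 h and -0.32 ± 0.04 at 22 h. Whether the courses of the sets differ was not tested, and by feature the difference between 22 h and 4 h passed for 5 of the 102 positive and 1 of the 78 negative features. The sets were chosen at 4 h, so their 4 h values are drawn away from 0 by the choice. The values read on an array left out of the choice, -0.37 to -0.66 for the negative features, stood against 22 h medians of the same features between -0.36 and -0.24, and those of the positive features, 0.53 to 0.80, against 0.74 to 0.81.

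**Figure D4:**
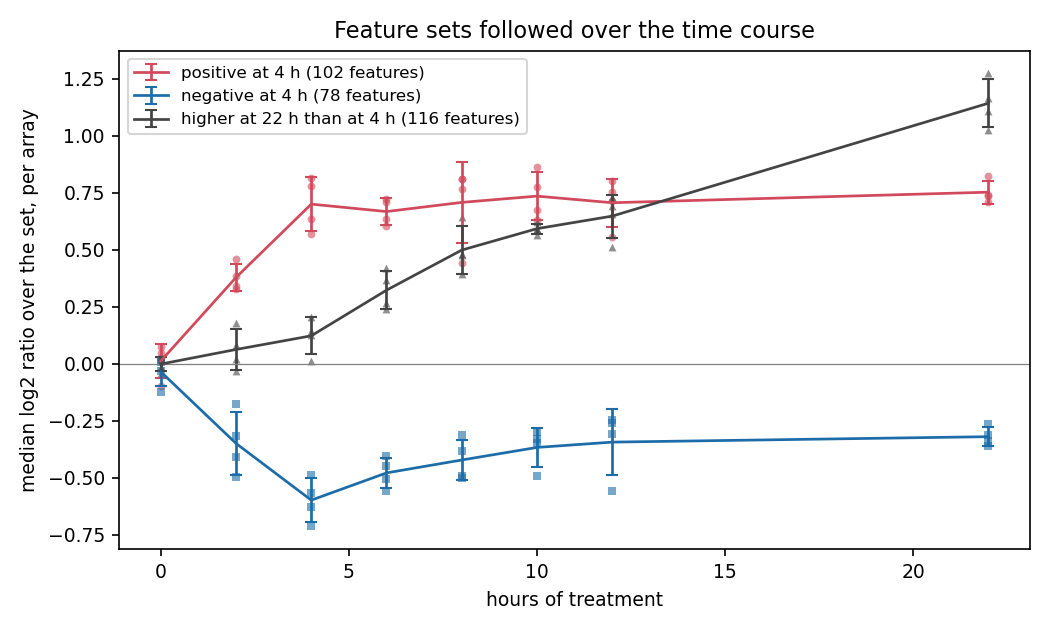
Median log2 ratio per array (points) with the mean and SD over the 4 arrays of each time point (lines and bars) for the features called positive or negative at 4 h and for those with a higher ratio at 22 h than at 4 h. The positive set stays near 0.7 from 4 h on, the negative set is farthest from 0 at 4 h, and the third set is at 0.12 at 4 h and 1.14 at 22 h.

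Calls were shared with other times to different extents. Of the 102 positive features, 15 were called at 2 h, where 0.149% of all features were, and they made up 15 of the 16 positive calls there. The 6 h arrays called 78 of them (2.11% of all features) and the 8 h arrays 77 (2.31%). The counts were 73 for 10 h (2.26%), 73 for 12 h (2.34%) and 76 for 22 h (4.25%). Of the negative features, the 2 h arrays called 10 of 78 (0.159% of all features). The 6 h arrays called 34 (1.04%) and the 8 h arrays 33 (0.823%). The counts were 26 for 10 h (0.923%), 19 for 12 h (0.522%) and 22 for 22 h (1.63%). The positive features shared with 6 h are 76.5% of the 4 h calls and 34.4% of the 6 h calls, and the negative ones 43.6% and 30.4%. No feature was called on the opposite side at another time. No array served at more than 1 time point, but all times share the dye term and the spread estimate of each feature. All 5 of the later times called 56 of the positive and 7 of the negative features. Over all features that share can be at most 2.11% positive and 0.522% negative, the lowest shares among these 5 times. At no other time were 11 positive and 27 negative features called. The share of all features called at 1 time alone is not given here. The 11 had medians of 0.10 ± 0.13 at 2 h, 0.56 ± 0.13 at 4 h and 0.32 ± 0.09 at 6 h, and the 27 stood at -0.29 ± 0.20, -0.59 ± 0.21 and -0.31 ± 0.12. A call missed at another time does not show that the ratio differed from that at 4 h.

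Tests of the difference itself separated 4 h from 22 h but not from its neighbours. Between 4 h and 2 h limma called 0 of 10675 features (512, or 4.8%, at an unadjusted p under 0.05), and between 6 h and 4 h 0 of 10712 (250, or 2.33%). A dye term for each time point gave 2 calls between 4 h and 2 h. The median difference over the positive features was 0.28 from 2 h to 4 h and -0.03 from 4 h to 6 h, where the median SE of a feature was 0.188. Between 22 h and 4 h, 119 of 10697 features (1.11%) passed, 116 (1.08%) with the higher ratio at 22 h and 3 (0.028%) with the lower. Of the 116, 3 were among the positive calls of 4 h. Their median was 0.12 ± 0.08 at 4 h and 1.14 ± 0.10 at 22 h, which the choice fixes. At the times the choice did not use, the 2 h median was 0.06 ± 0.09 and the 6 h median 0.32 ± 0.08. It then stood at 0.50 ± 0.10 for 8 h, 0.59 ± 0.02 for 10 h and 0.65 ± 0.09 for 12 h. The count of 119 was 79 without replicate 1 and 60 without replicate 3, 41 with only the arrays of both times, 64 with the arrays averaged, 74 with arrays scaled and 48 without the arrays with many limit values. The 3 lower calls were 8 without replicate 4 and 1 with no dye term.

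The negative features were unevenly spread over the plates of the identifiers. Of 114 plates, 41 held a negative and 61 a positive call, and no plate held over 3 positive calls. Plate 1 held 12 negative features and plate 3 held 8, and the others at most 4. Together plates 1 and 3 held 20 (25.6%) of the negative calls and 1 of the positive ones. That is 10.8% of the 186 features tested on these plates, against 0.550% on all other plates. Plates 1 and 3 were picked out after the counts were seen. The features called were chosen as negative on these arrays, so their medians had to lie below those of their plates. The median over all features of plate 1 was -0.03, -0.13, -0.29 and -0.04 on replicates 1 to 4, where its 12 negative features stood at -0.57, -0.68, -0.67 and -0.81. For plate 3 the medians were 0.03, -0.04, -0.20 and -0.10, where its 8 negative features stood at -0.81, -0.99, -0.62 and -0.32. What the clones of a plate have in common is not given in the sources used here.

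**Figure D5:**
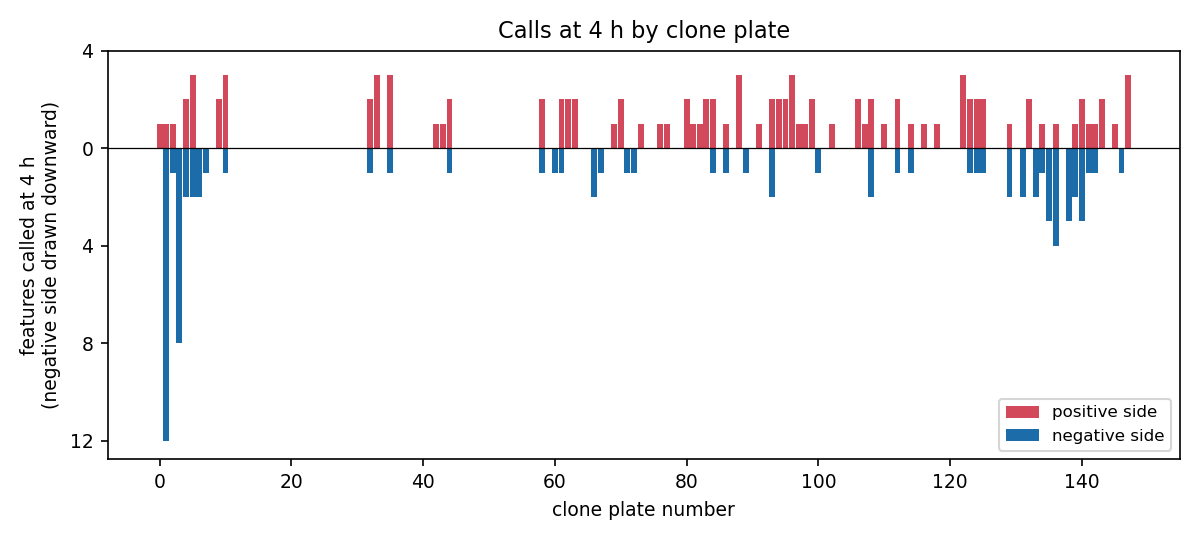
Number of features called at 4 h on each plate of the identifiers, positive calls drawn upward and negative calls downward. Positive calls lie on 61 of the 114 plates, with at most 3 on a plate, and plates 1 and 3 stand out with 12 and 8 negative calls.

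The 20 negative features of plates 1 and 3 had a 0 h median of 0.01 ± 0.18, a 2 h median of -0.35 ± 0.17 and a 4 h median of -0.71 ± 0.11. The 6 h median was -0.57 ± 0.15 and the 8 h median -0.54 ± 0.24. At 10, 12 and 22 h they stood at -0.33 ± 0.27, -0.34 ± 0.26 and -0.26 ± 0.15. Of the 20, 11 were called at 6 h and 10 at 8 h, and 2 at each of 10, 12 and 22 h. The plates held 15 of the 112 negative calls of 6 h and 15 of the 88 of 8 h, and 3 of the 99 of 10 h, 2 of the 56 of 12 h and 7 of the 175 of 22 h. These are 13.4%, 17.0%, 3.03%, 3.57% and 4.00% of the negative calls, where the plates hold 1.73% of the features tested at 4 h. At 2 h they held 2 of the 17 negative calls (11.8%). On the positive side they held 0 of the 16 calls of 2 h, 8 of the 227 of 6 h and 10 of the 247 of 8 h. At 10, 12 and 22 h they held 14 of 242, 15 of 251 and 17 of 456 positive calls. These counts are above those of their negative calls, but positive calls were also more numerous over all plates at these times. As a share of the calls of a side, the positive one was the larger at 10 and 12 h and the negative one at 22 h. The positive shares were above 1.73% at each of these times. All 20 negative features were nearer 0 at 22 h than at 4 h. The limma test of that difference was passed by 0 of them, with 11 at an unadjusted p under 0.05. Without replicate 1, 2 or 3 the 4 h count on the plates was 6, 6 and 9, and it was 12 with a dye term for each time point and 0 with the arrays averaged, with 4 h alone or without the arrays with many limit values. Among pairs of these 20 features, 24 of 190 correlated over 0.8 across the 32 arrays, against 7 of 1653 pairs among the 58 negative features of other plates.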

How the data were processed

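The authors deposited 1 log10 ratio of the 2 channels per feature and array. Per the labels, the data were analysed with Rosetta Resolver. No source used here gives its version, the background correction, the normalization or the numerator of the ratio, and scanner signals were not used here. The log10 scale was read from the values, with array medians near 0 and extremes of exactly 2 and -2. Groups and orientations came from the labels.

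The values were multiplied by 3.32 to log2 ratios, replicates 2 and 4 were turned, and limit values were set to missing. limma 3.58.1 in R 4.3.3 (lmFit, eBayes) fitted all 32 arrays with a coefficient for each time point and, for each feature, a dye effect, after tests on simulated data. Differences between times were coefficients of the same fit. Features needed 1 value per orientation at each time compared. Tests were two-sided with a threshold of 0.05 after Benjamini-Hochberg adjustment over all features tested. The number of arrays limits the precision.

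The named features are the 2 largest on each side among calls with 1 sign on all 4 arrays. The time point, tests and naming rule were chosen with earlier results of these data known. The 9 like features, plates 1 and 3 and the readings on left-out arrays were chosen after seeing the values. Gene lists could not be applied, as no feature has a gene name.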

Additional observations from a re-analysis of the deposited data

Results flagged for a closer look

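Of 101 groups of 4 arrays examined for a value far from the other 3, 6 passed Dixon's test at its 95% critical value. By chance about 1 in 20 groups passes, here 5.05. Feature GP009E11 stood at 5.87 on replicate 1 at 4 h, with its other 3 arrays at 0.21 to 0.92. The median of the positive features was 0.44 on replicate 3 at 8 h, below the other 3 arrays. The 20 negative features of plates 1 and 3 had a median of -0.80 on replicate 2 at 6 h and of -0.0377 on replicate 1 at 22 h. The 11 features positive at 4 h alone had a median of -0.0561 on replicate 2 at 22 h. The 15 features positive at both 2 and 4 h had a median of 1.04 on replicate 2 at 12 h, above the other 3.

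Effects differed between time points by the test of the difference itself for 18 features between 4 h and 0 h and for 119 between 22 h and 4 h.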

How the results depend on the processing

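All alternatives were listed with earlier results of these data known, and where a setting changed a count the cause was not tested. The 4 h count of 180 (102 positive, 78 negative) was 81 (53, 28) at a threshold of 0.01. It was 30 (26, 4) with arrays averaged as dye swaps and 5 (5, 0) with 4 h alone. Without the 11 arrays of the course with over 100 limit values, and with no filter on missing values, it was 22 (18, 4). That setting leaves 1 orientation at 4 h. A dye term for each time point gave 50 on the negative side. With 1 replicate left out the total ran from 59 to 138, the positive side from 42 to 78 and the negative side from 17 to 60. The 18 features of 4 h minus 0 h became 30 with no filter on missing values, 30 with arrays scaled, 9 at 0.01, 0 averaged and 5 to 14 with 1 replicate left out. The 119 of 22 h minus 4 h became 41 with both times alone, 74 scaled, 65 at 0.01, 64 averaged, 48 without the arrays with many limit values and 60 to 102 with 1 replicate left out. Between 4 h and 2 h, the dye term for each time point gave 2 calls in place of 0. Leaving out a replicate gave 0 between 4 h and 2 h and 0 between 6 h and 4 h. No total count above moved by over 1.5 times with limit values kept, no dye term, values on all 4 arrays, arrays centred or a robust variance, but the 3 features lower at 22 h than at 4 h became 1 with no dye term.

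With the replicate block, the 4 h count was 300 (175, 125), 4 h minus 0 h 69 and 22 h minus 4 h 255. The replicate numbers are shared between time points by title only. Once times and dye were removed, same-numbered arrays correlated from -0.0361 to 0.261, with 11 of 16 pairs over 0.1 and 12 of the 16 arrays at 0, 2, 6 and 22 h matching the 4 h array of their own number best. At 6 h all 4 pairs were over 0.1, and the block left 0 calls between 6 h and 4 h (330 at an unadjusted p under 0.05 by limma). Pairing was taken as shown only if every pair was over 0.1, which did not hold at 0, 2 and 22 h, so the numbers are a hint of shared origin from the data and not from the design.

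Turning the sign gave GP010A11 -2.38, GP009E11 -1.92, GP001B2 1.36 and GP010A10 1.33, and medians of -0.70 and 0.60 for the positive and negative sets, by construction. Of 72 values of the named features under the alternatives, 20 kept the direction without passing the threshold. No signal over background was at hand, so what dim spots contribute was not examined.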

Other observations

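A fitted ratio beyond 2-fold at 4 h was held by 133 features, of which 103 did not pass the test. A limit value stood on at least 1 of the 4 h arrays for 397 features. The spread of the ratios over features (median absolute deviation) was 0.251 to 0.311 log2 units on the 4 h arrays and 0.165 to 0.369 on the 0 h arrays. Of the positive features, 26 of 102 had their largest ratio of the 8 time points at 4 h, and of the negative features 46 of 78 did. Part of both counts follows from the choice at 4 h.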
